A study of Mus musculus with 19 samples.

Results

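The proteasome and immunoproteasome genes described here are the 48 entries whose mouse symbol begins with Psma, Psmb, Psmc, Psmd, Psme, Psmf or Psmg followed by a digit and that reached 1 FPKM in at least 4 of 19 kidney libraries. FPKM is a fragment count scaled by gene length and by library size, so levels of different genes are compared here per length. The 48 genes are among 13594 entries tested and 19287 entries in the deposited table. Of 57 such symbols in a RefSeq table, 50 had an entry. Psma8, a testis form of an alpha subunit, and Psmb11, the thymus form of a beta subunit, did not pass and stayed at or below 0.41 and 0.02 FPKM in every library. The 7 symbols without an entry are 6 pseudogenes and Psme2b, a copy of Psme2. By role, 46 of the 48 are subunits, activators, an inhibitor or assembly factors. The other 2, Psmc3ip and Psme3ip1, match only by name and encode a meiotic recombination factor and a partner of the Psme3 protein.

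Messenger RNA of whole kidney was sequenced from male C57BL/6 mice, an inbred strain, in 4 groups. IRLacz (n = 4) had Lactobacillus casei Zhang by mouth for 4 weeks before ischemia-reperfusion, in which renal blood flow is stopped and restored. IRLac (n = 5) had another Lactobacillus, taken as L. acidophilus by elimination, for 4 weeks before the same injury. IR (n = 5) had the injury with no gavage given in the labels, and sham (n = 5) was not injured. Kidneys of injured mice were taken on day 5 after injury. Since no gavage is described for IR, the strain and the gavage itself cannot be told apart in comparisons with IR. Whether every library stems from a separate mouse is not stated, and the p-values measure the spread between these libraries, which may be technical. Whole kidney RNA was measured, and a lower level can mean fewer cells of a type or less RNA per cell, which cannot be told apart.

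The proteasome is the protease that degrades ubiquitin-tagged proteins. Its core particle is a barrel of alpha rings, which gate entry, and beta rings, where Psmb5, Psmb6 and Psmb7 carry the catalytic sites. Interferon-gamma induces the replacement subunits Psmb8, Psmb9 and Psmb10, which enter newly built cores in the places of Psmb5, Psmb6 and Psmb7 and form the immunoproteasome, a major source of peptides for MHC class I. Leukocytes hold immunoproteasome without stimulation, while kidney epithelium holds mostly the constitutive form. The regulatory particle has a base of ATPases that unfold substrates and a lid that removes ubiquitin, and Psme1 and Psme2 together form an alternative, interferon-inducible cap.

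Promoter windows from RefSeq (GRCm38.p6, 250 bases before to 50 bases after the annotated start, on the strand of the gene) were available for 41 of the 48 genes. They are shown for the inducible Psmb8, Psmb9, Psmb10 and Psme1, and for the constitutive Psmb5 and Psmb6, because the values below turn on these genes. Capitals mark a gamma-activated site (TTCNNNGAA, in Psmb8), an interferon-stimulated response element core (GAAA, any 2 bases, GAAA, in Psme1 on the opposite strand) and an antioxidant response element core (TGACNNNGC, in Psmb5 and Psmb6). The windows lie at chr17:34197945-34198244, plus strand (Psmb8), chr17:34187281-34187580, minus strand (Psmb9), chr8:105938343-105938642, minus strand (Psmb10), chr14:55578244-55578543, plus strand (Psme1), chr14:54617946-54618245, minus strand (Psmb5) and chr11:70525107-70525406, plus strand (Psmb6).
Psmb8: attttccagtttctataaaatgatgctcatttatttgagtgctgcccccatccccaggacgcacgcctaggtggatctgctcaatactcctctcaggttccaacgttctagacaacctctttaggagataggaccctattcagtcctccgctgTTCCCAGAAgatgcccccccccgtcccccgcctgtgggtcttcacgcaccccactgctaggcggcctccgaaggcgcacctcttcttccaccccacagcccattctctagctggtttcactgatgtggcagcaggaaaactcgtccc
Psmb9: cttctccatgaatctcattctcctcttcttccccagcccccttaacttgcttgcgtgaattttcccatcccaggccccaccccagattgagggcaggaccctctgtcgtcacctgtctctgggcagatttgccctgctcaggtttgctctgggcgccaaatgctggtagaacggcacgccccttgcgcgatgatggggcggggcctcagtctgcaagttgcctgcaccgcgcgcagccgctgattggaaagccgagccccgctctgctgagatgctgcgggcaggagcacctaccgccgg
Psmb10: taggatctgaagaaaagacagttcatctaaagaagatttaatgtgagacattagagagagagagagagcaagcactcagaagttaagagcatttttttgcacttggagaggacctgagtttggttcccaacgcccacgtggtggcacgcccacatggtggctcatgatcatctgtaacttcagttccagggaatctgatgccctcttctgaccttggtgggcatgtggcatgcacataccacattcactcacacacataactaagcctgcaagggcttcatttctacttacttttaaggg
Psme1: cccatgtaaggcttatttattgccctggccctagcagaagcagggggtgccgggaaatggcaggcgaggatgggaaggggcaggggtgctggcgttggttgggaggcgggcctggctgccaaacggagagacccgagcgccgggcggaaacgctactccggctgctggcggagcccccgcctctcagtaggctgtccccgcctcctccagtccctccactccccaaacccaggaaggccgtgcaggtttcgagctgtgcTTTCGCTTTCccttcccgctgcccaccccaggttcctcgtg
Psmb5: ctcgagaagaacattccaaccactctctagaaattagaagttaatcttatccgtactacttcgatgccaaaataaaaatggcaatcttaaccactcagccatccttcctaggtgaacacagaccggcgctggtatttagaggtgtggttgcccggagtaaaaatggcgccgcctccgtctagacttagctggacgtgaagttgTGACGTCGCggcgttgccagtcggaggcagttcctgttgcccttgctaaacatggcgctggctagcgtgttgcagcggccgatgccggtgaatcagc
Psmb6: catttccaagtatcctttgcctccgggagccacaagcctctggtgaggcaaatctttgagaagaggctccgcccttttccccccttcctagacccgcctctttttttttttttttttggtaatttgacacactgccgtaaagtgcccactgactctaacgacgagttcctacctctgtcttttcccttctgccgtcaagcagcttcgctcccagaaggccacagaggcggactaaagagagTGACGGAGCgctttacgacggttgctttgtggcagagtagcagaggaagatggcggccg
Both strands were searched, each marked window holds 1 match, and no match overlaps another. The interferon-stimulated core was found in 5 of the 41 genes (Psmb3, Psmd4, Psmd9, Psme1 and Psmg4), and 3.44% of 32851 mouse promoter windows hold it. The gamma-activated letters were found in 3 of 41 genes (Psmb8, Psmd2 and Psmg1), against 8.3% of all windows, and the antioxidant core in 6 (Psmb5, Psmb6, Psmc6, Psmd12, Psmd9 and Psme4), against 12.39%. The 41 genes had 45 windows, and a gene was counted if any of its windows matched, while the percentages are shares of windows. A match describes the letters in the window only, and the windows of Psmb9 and Psmb10 held none of the 3.

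FPKM totals ran from 545590 to 584798 per library, and read depth is not given in the sources used here. Between 12750 and 13283 entries reached 1 FPKM in the 14 injured libraries and between 11988 and 12156 in sham. Each library was placed on the line between the sham mean (0%) and the IR mean (100%), with its own values left out of those means. Most injured libraries lay between 77.4% and 106.8%, but the first IRLacz replicate lay at 45.9% and the third IRLac replicate at 66.9%. The inducible genes, their ratios and the list counts below are also given without them where that moves the value by over 1.5 times or changes a call. All 12 kidney identity markers passed the filter, with summed levels of 3941 to 7090 FPKM in IRLacz, 3155 to 6479 in IRLac, 3484 to 4778 in IR and 7394 to 8038 in sham.

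Injury was set against sham to ask how proteasome RNA stood at day 5. The interferon-inducible genes rose, while most genes of the constitutive particle moved by little. Of the 48 genes, 25 were higher in IR and 2 were lower (limma, Benjamini-Hochberg adjusted p under 0.05), where 57.0% of all entries tested were higher and 18.6% were lower. The number called is thus not in itself a result about proteasome genes. The median log2 difference of the 48 genes was 0.15, against 0.29 over all entries, and 15 of the 48 lay above the median of all. Ranges of the 2 groups did not overlap for 19 genes above sham and 1 below, where this held for 48.6% and 15.2% of all entries. The split depends on the scaling of the libraries. With median-ratio scaling, which sets the middle entry near no difference, 8 genes were higher and 29 lower (35.5% and 34.7% of all entries). Of the 25 genes higher in FPKM, 8 stayed higher under that scaling, namely Psmb8, Psmb9, Psmb10, Psme1, Psme2, Psmd10, Psmg4 and Psma5, while 7 were called lower and 10 were not called. The plot of all differences places the 5 inducible genes apart from the remaining 43, whose median was 0.14.

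**Figure D1:**
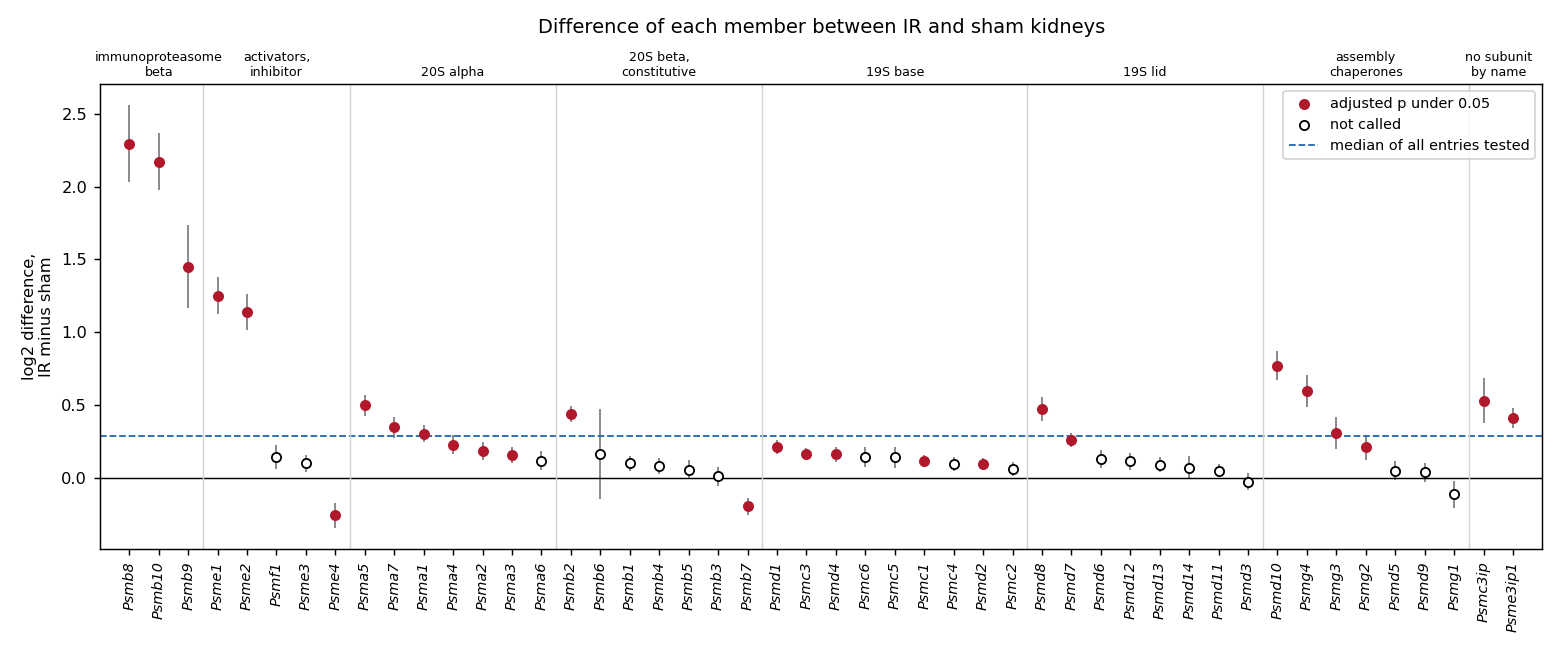
Log2 difference, IR minus sham, on the log2(FPKM + 1) scale for each of the 48 genes by role, with its SE; filled points passed an adjusted p of 0.05 and the dashed line is the median of all entries (0.29). Psmb8, Psmb10, Psmb9, Psme1 and Psme2 stand highest, at 1.14 to 2.30, and most other genes lie below the dashed line, including several that are called higher here and lower with median-ratio scaling.

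The replacement catalytic subunits differed most. Psmb8, the inducible chymotrypsin-like subunit, was at 103, 61.6, 71.2, 78.1 and 43.3 FPKM in IR, against 12.4, 12.6, 15.5, 14.2 and 11.6 FPKM in sham. The lowest IR library was above the highest sham library. The mean was 5.38 times as high in IR, and the log2 difference was 2.30 (SE 0.27, limma adjusted p = 4.8e-07), 2.01 above the median of all entries.

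Psmb10, the inducible trypsin-like subunit, was at 84.2, 64.2, 61.01, 62.7 and 45.2 FPKM in IR, against 10.96, 12.8, 15.7, 14.7 and 11.6 FPKM in sham. These ranges did not overlap, and the log2 difference was 2.17 (SE 0.19, limma adjusted p = 2.1e-08). Psmb9, the third inducible subunit, was at 39.1, 19.01, 23.5, 24.4 and 15.4 FPKM in IR, against 6.12, 8.45, 9.60, 7.14 and 8.24 FPKM in sham. It rose by 1.45 on the log2 scale (SE 0.29, limma adjusted p = 0.00017), also without overlap. All 3 were higher with every scaling tried.

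The inducible cap followed. Psme1, its alpha subunit, was at 193, 157, 153, 163 and 128 FPKM in IR, against 60.4, 69.8, 73.1, 63.7 and 61.9 FPKM in sham. Psme2, its beta subunit, was at 137, 113, 120.4, 121 and 92.5 FPKM in IR, against 52.0, 49.9, 56.7, 54.0 and 48.7 FPKM in sham. Neither pair of ranges overlapped, and the log2 differences were 1.25 (SE 0.13, limma adjusted p = 9.1e-08) for Psme1 and 1.14 (SE 0.12, limma adjusted p = 2.2e-07) for Psme2. Reads of Psme2 could be shared with its copy Psme2b, which has no entry. Above the median of all entries, the differences were 1.88 for Psmb10, 1.16 for Psmb9, 0.96 for Psme1 and 0.85 for Psme2. In IR, replicate 1 was highest and replicate 5 lowest in all 5 inducible genes.

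The other cap genes did not share this. Psme3, which forms a cap found mainly in the nucleus, averaged 43.95 ± 2.54 FPKM in IR libraries and 41.0 ± 1.74 in sham libraries (SD, n = 5 each, limma adjusted p = 0.13). Psme4, the large cap known from sperm and muscle, was at 19.6, 18.9, 18.4, 22.0 and 20.7 FPKM in IR, against 25.2, 24.2, 19.5, 26.5 and 25.1 FPKM in sham. It fell by 0.26 on the log2 scale (SE 0.08, limma adjusted p = 0.0093), and its ranges overlap through sham replicate 3. Psmf1, an inhibitor of the core, averaged 10.9 ± 0.98 FPKM in IR libraries and 9.80 ± 0.82 in sham libraries (SD, n = 5 each, limma adjusted p = 0.12).

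**Figure D2:**
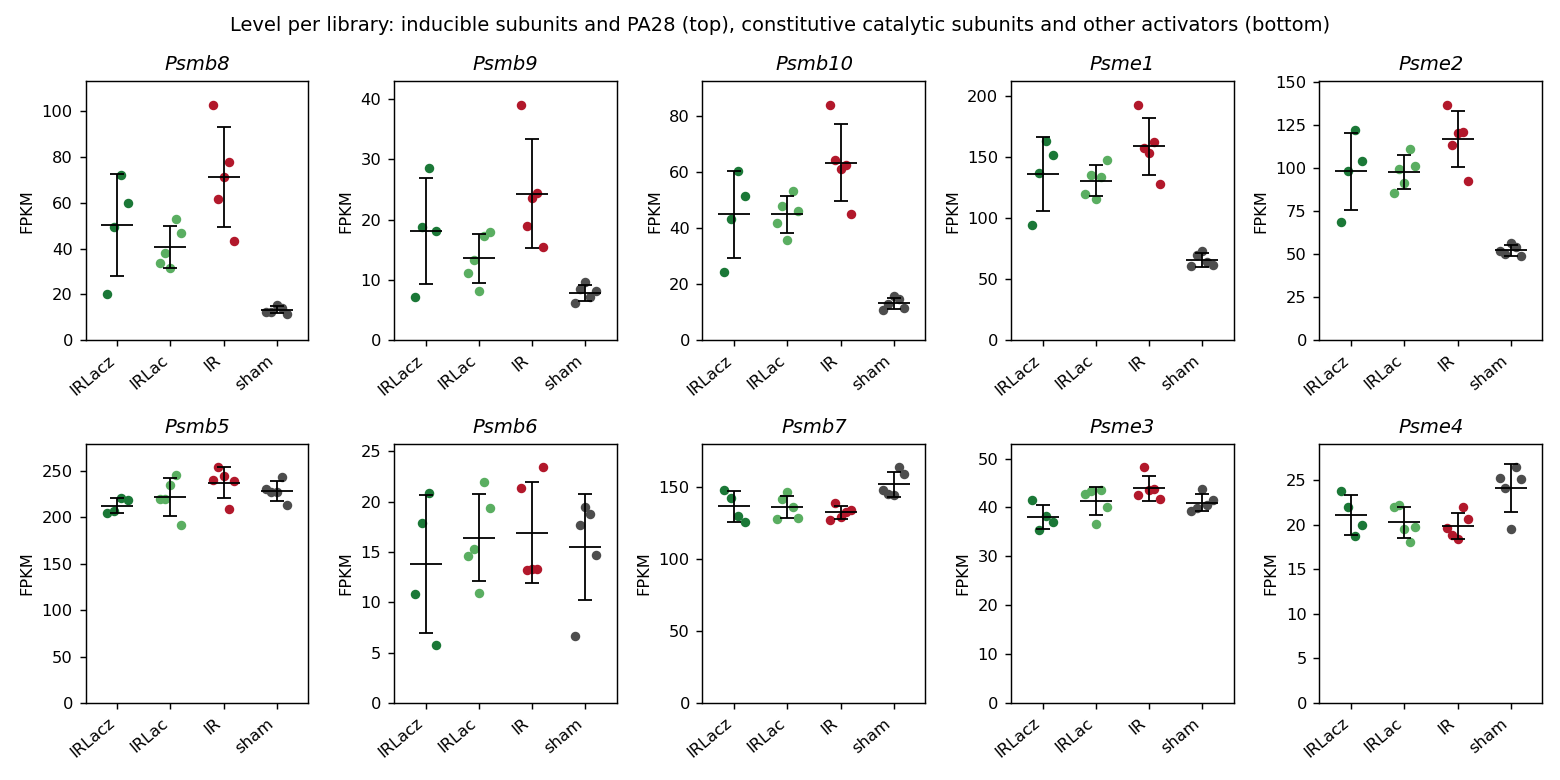
FPKM in each library (points) with group mean and SD (bars) for the inducible genes in the upper row and the constitutive catalytic subunits and other caps in the lower row, by group from IRLacz to sham. The upper genes lie higher in IR than in sham with no overlap, IRLacz replicate 1 is the lowest injured library in each of them, and Psmb6 is far lower and more scattered than Psmb5 and Psmb7.

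The constitutive catalytic subunits gave no such rise. Psmb5, the constitutive chymotrypsin-like subunit, was at 240.3, 254, 244, 209 and 239 FPKM in IR, against 230.1, 228, 227, 244 and 213 FPKM in sham. These ranges overlap, and the log2 difference was 0.06 (SE 0.07, limma adjusted p = 0.47) in FPKM and -0.28 with median-ratio scaling. Psmb7, the constitutive trypsin-like subunit, was at 127, 139, 129, 133 and 134 FPKM in IR, against 148, 145, 144, 164 and 159 FPKM in sham. Every IR library was below every sham library, and Psmb7 fell by 0.20 on the log2 scale (SE 0.06, limma adjusted p = 0.0052).

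Psmb6, the constitutive caspase-like subunit, was at 21.4, 13.2, 13.3, 13.3 and 23.4 FPKM in IR, against 6.62, 17.6, 19.5, 18.8 and 14.7 FPKM in sham (limma adjusted p = 0.64). Its partners in the same ring, present in equal number in the particle, were at 57.0 FPKM or more in every library. The RefSeq table lists 2 pseudogenes of Psmb6, and how reads shared between copies were counted is not given in the sources used here. The level of Psmb6 is therefore uncertain, and pseudogenes of Psma5, Psmb5 and Psmb7 are listed too.

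The ratio of each replacement subunit to the subunit it displaces does not depend on library scaling. Psmb8 stood at 42.9%, 24.2%, 29.2%, 37.4% and 18.1% of the Psmb5 level in IR, against 5.40%, 5.51%, 6.84%, 5.83% and 5.47% in sham. The geometric mean of this ratio was 5.01 times as high in IR (two-sided exact permutation p = 0.00794, 0.0476 adjusted over 12 ratio comparisons, the smallest p that 5 against 5 can give being 0.00794). Psmb10 stood at 66.3%, 46.2%, 47.3%, 47.3% and 33.7% of Psmb7 in IR, against 7.41%, 8.85%, 10.9%, 8.99% and 7.29% in sham, 5.48 times as high (exact permutation p = 0.00794, adjusted 0.0476). Neither ratio overlapped between these groups. The ratio of Psmb9 to Psmb6 was 2.61 times as high (exact permutation p = 0.0159, adjusted 0.0635), with the same uncertainty as Psmb6. Without IR replicate 5, its adjusted exact permutation p was 0.0381.

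**Figure D3:**
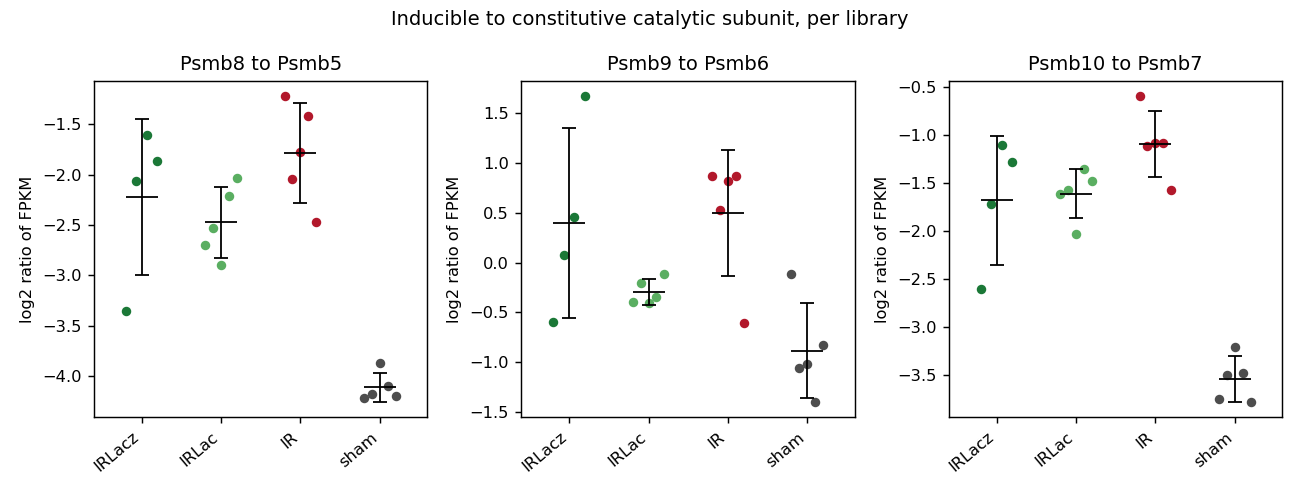
Log2 ratio of FPKM of each inducible subunit to the constitutive subunit it displaces, in each library (points), with group mean and SD (bars), for IRLacz, IRLac, IR and sham. The Psmb8 and Psmb10 ratios of every IR library lie above every sham library, and the IRLac means lie below the IR means by 0.69 and 0.52.

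Among the alpha subunits, 6 of 7 were higher in IR, where 57.0% of all entries were higher. Their median log2 difference was 0.23, against 0.29 over all entries. Of the 6, Psma2 and Psma3 were called lower with median-ratio scaling, and Psma1 and Psma4 had negative values with it. Psma5 rose most, with 58.0, 62.3, 61.2, 58.5 and 55.9 FPKM in IR, against 35.9, 43.5, 38.8, 44.4 and 46.4 FPKM in sham. Its ranges did not overlap, and its log2 difference was 0.50 (SE 0.07, limma adjusted p = 7.8e-06). Psma6, at 92.6 to 118 FPKM in IR and 89.0 to 106 FPKM in sham, was the alpha subunit that did not pass (limma adjusted p = 0.12).

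Of the 7 constitutive beta subunits, Psmb2 rose, Psmb7 fell and 5 did not pass, where 57.0% of all entries were higher and 18.6% lower. The median log2 difference of the 7 was 0.08, against 0.29 over all entries. Psmb2, a structural subunit, was at 86.2, 87.9, 86.0, 78.1 and 79.8 FPKM in IR, against 66.5, 61.4, 57.0, 58.6 and 63.6 FPKM in sham, with no overlap. It rose by 0.44 on the log2 scale (SE 0.05, limma adjusted p = 1.0e-06). It was not called with median-ratio scaling. Psmb3 and Psmb4, also structural, were at 157 ± 13.1 and 248 ± 16.6 FPKM in IR, against 155 ± 11.5 and 234 ± 10.7 FPKM in sham (SD, n = 5 each). Psmb4 had the highest mean level of all 48 genes.

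The regulatory particle moved little in FPKM. In its base, 5 of 9 genes were higher in IR (Psmd1, Psmc3, Psmd4, Psmc1 and Psmd2), where 57.0% of all entries were higher. The base median was 0.14, against 0.29 over all entries. With median-ratio scaling all 9 base genes were called lower, where 34.7% of all entries were lower. The call for Psmd2 (limma adjusted p = 0.048) was lost in 8 of 10 fits that left out 1 library. Psmd1, the largest base subunit, was at 48.4, 45.2, 45.0, 44.6 and 43.2 FPKM in IR, against 39.9, 40.05, 35.1, 40.1 and 40.2 FPKM in sham, a log2 difference of 0.21 that was -0.12 with median-ratio scaling. The ATPase gene Psmc2 ran from 62.4 to 68.3 FPKM in IR and from 59.9 to 66.1 FPKM in sham (limma adjusted p = 0.25).

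In the lid, Psmd8 and Psmd7 were higher in IR (Psmd7 by 0.26, but -0.07 with median-ratio scaling), where 57.0% of all entries were higher. The other 6 of 8 genes did not pass, and the lid median was 0.10. With median-ratio scaling 6 of the 8 were called lower, where 34.7% of all entries were lower. Psmd8 was at 132, 138, 125, 125 and 121 FPKM in IR, against 92.2, 85.1, 96.0, 98.0 and 89.8 FPKM in sham. The ranges did not overlap, and the log2 difference was 0.47 (SE 0.08, limma adjusted p = 4.6e-05), which was not called with median-ratio scaling. Psmd3, a scaffold of the lid, ran from 106 to 116 FPKM in IR and from 107 to 115 FPKM in sham (limma adjusted p = 0.67). It was called lower with median-ratio scaling (log2 difference -0.36, limma adjusted p = 3.4e-05). Psmd14, the deubiquitinase of the lid, averaged 34.9 ± 2.78 FPKM in IR libraries and 33.3 ± 3.70 in sham libraries (SD, n = 5 each, limma adjusted p = 0.45).

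Assembly factors were low in level and mixed. Psmd10, a chaperone of the base also known as gankyrin, was at 28.7, 27.3, 29.1, 28.8 and 25.5 FPKM in IR, against 16.0, 16.9, 13.9, 17.4 and 15.5 FPKM in sham. Psmg4, a chaperone of the alpha ring, was at 45.2, 46.3, 51.9, 41.6 and 38.8 FPKM in IR, against 27.7, 27.8, 29.5, 30.7 and 29.8 FPKM in sham. Both rose with no overlap, by log2 differences of 0.77 (SE 0.10, limma adjusted p = 1.8e-06) and 0.60 (SE 0.11, limma adjusted p = 7.5e-05), and stayed higher with median-ratio scaling.

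Psmg2 and Psmg3, further chaperones of the core, rose by 0.21 and 0.31 in FPKM and were at -0.11 and -0.01 with median-ratio scaling, and the call for Psmg2 was lost in 4 of 10 fits that left out 1 library. Psmg1, the partner of Psmg2, ran from 18.7 to 22.8 FPKM in IR and from 21.2 to 24.3 FPKM in sham (limma adjusted p = 0.27). It was called lower with median-ratio scaling (log2 difference -0.43, limma adjusted p = 0.0002). Psmd5 and Psmd9, chaperones of the base, had log2 differences of 0.05 and 0.04 that did not pass. Of the 2 genes that match by name only, Psmc3ip, at 4.18 to 5.91 FPKM in IR and 2.83 to 3.65 FPKM in sham, rose by 0.53 and Psme3ip1 by 0.41 (limma adjusted p = 0.0041 and 2.3e-05), and neither was called with median-ratio scaling.

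IRLacz was set against IR to ask how kidneys of gavaged mice differed from injured kidneys with no gavage given in the labels. Of the 48 genes, 0 were higher and 4 were lower in IRLacz (limma), where 5.39% of all entries were higher and 7.92% lower (13.3% in all), and 9 of the 48 had an unadjusted p under 0.05 (30.7% of all entries). Ranges lay wholly below IR for 5 of the 48 (6.85% of all entries). The 4 lower genes were Psmc4, an ATPase of the base, Psme3, Psmg4 and Psme3ip1, with log2 differences between -0.15 and -0.37. Psme3ip1 was at 21.8, 22.7, 27.2 and 26.6 FPKM in IRLacz, against 30.3, 29.7, 29.9, 27.2 and 29.0 FPKM in IR (log2 difference -0.25, SE 0.07, limma adjusted p = 0.031). Psmg4 was at 24.1, 35.6, 42.5 and 37.7 FPKM in IRLacz, against 45.2, 46.3, 51.9, 41.6 and 38.8 FPKM in IR (log2 difference -0.37, SE 0.12, limma adjusted p = 0.042). IRLacz replicate 1 was the lowest library in both, and the Psmg4 ranges overlap. Without it, the Psmg4 difference was -0.205 (limma adjusted p = 0.12) and that of Psme3ip1 was -0.19 (limma adjusted p = 0.096).

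Psmc4 was at 75.2, 76.1, 71.3 and 74.8 FPKM in IRLacz, against 84.6, 85.0, 82.0, 80.1 and 81.3 FPKM in IR (log2 difference -0.15, limma adjusted p = 0.047). Psme3 was at 41.4, 35.4, 38.2 and 37.1 FPKM in IRLacz, against 42.5, 48.2, 43.6, 43.8 and 41.6 FPKM in IR (log2 difference -0.20, limma adjusted p = 0.038). In both, every IRLacz library was below every IR library. These calls were not stable, since 0 genes were called with only IRLacz and IR in the model and 2 with median-ratio scaling (9.81% of all entries lower). The count was 1 without IRLacz replicate 1, 2 without IRLacz replicate 4, 6 without IR replicate 5, and 0 without IRLacz replicate 2 or IR replicate 1, 2 or 3. Over the 9 fits that left out 1 library, Psmc4 lost its call in 8, Psme3 in 7, and Psmg4 and Psme3ip1 in 5 each.

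The other roles overlapped between IRLacz and IR in most of their genes. Psmd7, a lid subunit, ran from 57.4 to 59.7 FPKM in IRLacz and from 61.3 to 69.8 FPKM in IR, without overlap and just outside the threshold (log2 difference -0.16, limma adjusted p = 0.054). Psmd3 ran from 102.9 to 120.2 FPKM in IRLacz and from 106 to 116 FPKM in IR, and the base subunit Psmd4 from 88.1 to 99.2 FPKM in IRLacz and from 88.1 to 100.5 FPKM in IR. In the core, Psma2 ran from 105 to 114 FPKM in IRLacz and from 98.9 to 117 FPKM in IR, and Psma4 from 112 to 139 FPKM in IRLacz and from 122 to 136 FPKM in IR.

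None of these 4 overlapping genes passed, and neither did the next 5. Psmb7 ran from 125 to 148 FPKM in IRLacz and from 127 to 139 FPKM in IR, and Psmb6 from 5.71 to 20.8 FPKM in IRLacz and from 13.2 to 23.4 FPKM in IR. Psme4 ran from 18.7 to 23.8 FPKM in IRLacz and from 18.4 to 22.0 FPKM in IR, and the chaperone Psmd5 from 24.0 to 26.9 FPKM in IRLacz and from 23.9 to 27.4 FPKM in IR. Psmc3ip ran from 3.93 to 6.88 FPKM in IRLacz and from 4.18 to 5.91 FPKM in IR. Psmb6 had the widest of these ranges relative to its level, with the uncertainty given above.

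The inducible genes were lower on average in IRLacz and did not pass. Psmb8 was at 20.1, 49.6, 72.1 and 59.9 FPKM in IRLacz, against 103, 61.6, 71.2, 78.1 and 43.3 FPKM in IR. Psmb9 was at 7.12, 18.8, 28.5 and 18.2 FPKM in IRLacz, against 39.1, 19.01, 23.5, 24.4 and 15.4 FPKM in IR. Psmb10 was at 24.4, 43.3, 60.5 and 51.6 FPKM in IRLacz, against 84.2, 64.2, 61.01, 62.7 and 45.2 FPKM in IR. IRLacz replicate 1 was the lowest of its group in all 5 inducible genes, replicate 3 the highest, and each range overlapped that of IR.

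Log2 differences, IRLacz minus IR, were -0.58 for Psmb8 (SE 0.28, limma adjusted p = 0.17), -0.48 for Psmb9 (SE 0.30, adjusted p = 0.29) and -0.54 for Psmb10 (SE 0.20, adjusted p = 0.088). Without IRLacz replicate 1 these differences were -0.20, -0.11 and -0.27. Psmb10 passed without IR replicate 5 (limma adjusted p = 0.040) or IRLacz replicate 3 (0.038). Psme1 averaged 136 ± 30.2 FPKM in IRLacz libraries and 159 ± 23.2 in IR libraries, and Psme2 averaged 98.3 ± 22.3 FPKM in IRLacz libraries and 117 ± 16.2 in IR libraries (SD, n = 4 and 5, limma adjusted p = 0.23 and 0.17). Without IRLacz replicate 1, the differences of Psme1 and Psme2 were -0.07 and -0.105. Among the subunit ratios, that of Psmb8 to Psmb5 was 0.74 times the IR value in IRLacz (exact permutation p = 0.37, adjusted 0.50) and that of Psmb10 to Psmb7 was 0.66 times (exact permutation p = 0.13, adjusted 0.19). In log2 these differences were -0.44 and -0.59, and without IRLacz replicate 1 they were -0.06 and -0.28. The ratio of Psmb9 to Psmb6 was 0.93 times the IR value (exact permutation p = 0.85, adjusted 0.85), with the uncertainty of Psmb6. Its log2 difference was -0.10, and 0.24 without IRLacz replicate 1.

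IRLac was set against the same 5 IR libraries. None of the 48 genes passed (limma), 4 had an unadjusted p under 0.05, and 0.00736% of all entries were called, that is 1 of 13594, with 786 (5.78%) at an unadjusted p under 0.05. Without IR replicate 5, 116 entries were called and still 0 of the 48. Psmb8 was at 33.9, 38.1, 31.5, 53.2 and 46.7 FPKM in IRLac, against 103, 61.6, 71.2, 78.1 and 43.3 FPKM in IR. Psmb9 was at 11.1, 13.3, 8.20, 17.3 and 17.9 FPKM in IRLac, against 39.1, 19.01, 23.5, 24.4 and 15.4 FPKM in IR. Psmb10 was at 41.8, 47.8, 35.7, 53.4 and 46.2 FPKM in IRLac, against 84.2, 64.2, 61.01, 62.7 and 45.2 FPKM in IR. In each, IRLac overlapped IR only through IR replicate 5.

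Log2 differences, IRLac minus IR, were -0.77 for Psmb8 (SE 0.27, limma adjusted p = 0.54), -0.78 for Psmb9 (SE 0.29, adjusted p = 0.62) and -0.47 for Psmb10 (SE 0.19, adjusted p = 0.77). The 4 genes at an unadjusted p under 0.05 were these 3 and Psme1. Psme1 and Psme2 were at 130.5 ± 12.7 and 97.8 ± 9.93 FPKM in IRLac, against 159 ± 23.2 and 117 ± 16.2 FPKM in IR (SD, n = 5 each). The ratios to the constitutive subunit were 0.62, 0.58 and 0.70 times the IR value for Psmb8 to Psmb5, Psmb9 to Psmb6 and Psmb10 to Psmb7. Exact permutation p-values were 0.0476, 0.0476 and 0.0317, and 0.0952 each after adjustment over the 12 comparisons. Without IR replicate 5, the adjusted exact permutation p-values were 0.0476, 0.0238 and 0.0238. Of 10 fits that left out 1 library, this was the only 1 to pass for each ratio. Without IRLac replicate 3, the adjusted exact permutation p-values were 0.175, 0.152 and 0.152.

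**Figure D4:**
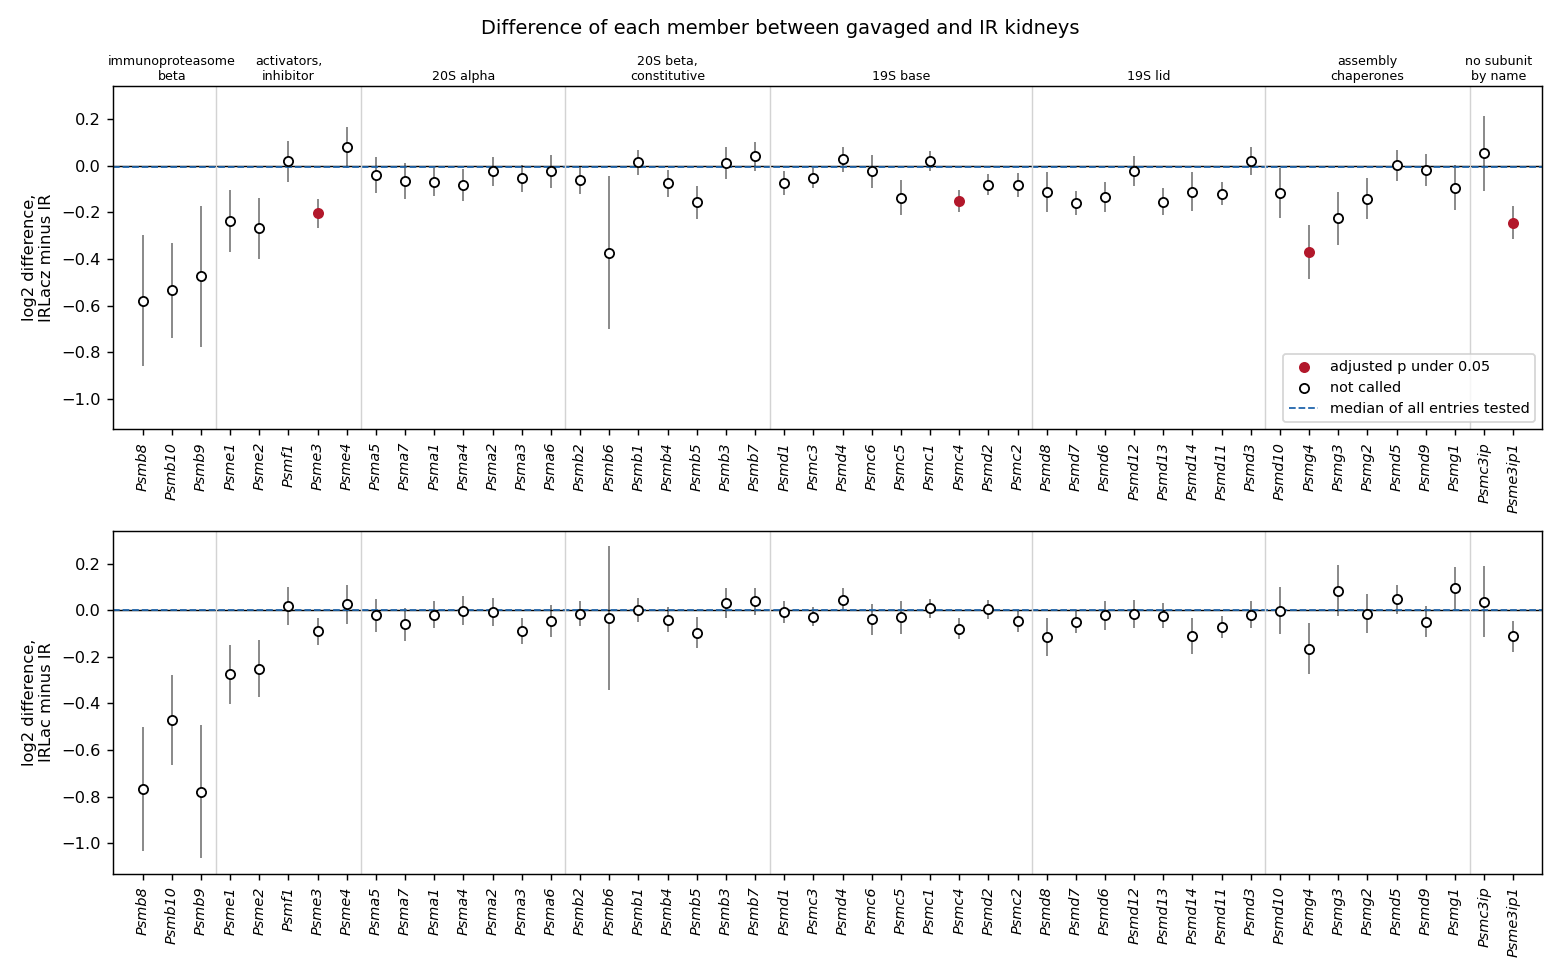
Log2 difference on the log2(FPKM + 1) scale for each gene by role with its SE, IRLacz minus IR in the upper panel and IRLac minus IR in the lower panel; filled points passed an adjusted p of 0.05. Psmb8, Psmb9 and Psmb10 have the lowest values in both panels, with wide errors, and both panels share the same IR libraries.

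Between the gavaged groups, none of the 48 genes passed (limma, 2 at an unadjusted p under 0.05, against 16.0% of all entries), where 0.0221% of all entries did. Without IRLac replicate 3, 490 of all entries passed and 0 of the 48. Psmb8 was at 50.4 ± 22.2 FPKM in IRLacz (n = 4) and 40.7 ± 9.09 FPKM in IRLac (n = 5, SD), Psmb9 at 18.2 ± 8.76 FPKM in IRLacz and 13.6 ± 4.11 FPKM in IRLac, and Psmb10 at 44.9 ± 15.4 FPKM in IRLacz and 45.0 ± 6.62 FPKM in IRLac. In IRLacz, replicate 1 was the lowest library in each of the 3. With all libraries, the log2 differences, IRLacz minus IRLac, were 0.19, 0.30 and -0.06. Without IRLacz replicate 1 they were 0.57, 0.67 and 0.20 (limma adjusted p = 0.25, 0.26 and 0.62), and without IRLac replicate 3 they were 0.11, 0.15 and -0.14. The ratios moved likewise, from a log2 difference of 0.25 to 0.63 for Psmb8 to Psmb5, 0.69 to 1.03 for Psmb9 to Psmb6 and -0.07 to 0.24 for Psmb10 to Psmb7 without IRLacz replicate 1, and none passed after adjustment. Without IRLac replicate 3 these ratio differences were 0.145, 0.66 and -0.17. Psme1 and Psme2 differed by 0.04 and -0.02 in log2 with all libraries. Their differences were 0.21 and 0.14 without IRLacz replicate 1, and -0.002 and -0.04 without IRLac replicate 3. The SE of the differences of Psmb8, Psmb9 and Psmb10 was 0.28, 0.30 and 0.20, so differences of that order were not detectable with these libraries.

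Psmb8, Psmb10, Psme1 and Psme2 stayed above sham in both gavaged groups, while Psmb9 depended on the processing in IRLac. Against sham, IRLacz had 18 genes higher and 1 lower (56.9% and 13.5% of all entries), and 6 higher and 32 lower with median-ratio scaling (31.3% and 31.0%). IRLac had 24 genes higher and 2 lower (58.0% and 16.8% of all entries), and 5 higher and 29 lower with median-ratio scaling (33.7% and 33.8%). Log2 differences from sham were 1.72 for IRLacz and 1.53 for IRLac in Psmb8, 1.64 and 1.70 in Psmb10, 1.02 and 0.98 in Psme1, and 0.87 and 0.89 in Psme2, with limma adjusted p between 4.8e-07 and 5.0e-05. Psmb9 stood 0.98 above sham in IRLacz (limma adjusted p = 0.0083) and 0.67 in IRLac (adjusted p = 0.041), its ranges overlapped sham in both, and in IRLac it was not called with median-ratio scaling (0.36, adjusted p = 0.25). Psmb9 in IRLac also lost its call in 7 of 10 fits that left out 1 library (adjusted p up to 0.10). Psmd10 was also higher in both, at 25.9 ± 4.46 FPKM in IRLacz and 28.01 ± 3.54 FPKM in IRLac, against 15.95 ± 1.38 FPKM in sham.

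Genes that act with the proteasome were listed separately, 26 of 27 being found. In IR, 16 were higher than in sham and 5 lower, with a median of 0.20, where 57.0% and 18.6% of all entries were higher and lower and their median was 0.29. With median-ratio scaling 3 were higher and 12 lower (35.5% and 34.7% of all entries). Sem1, a small lid protein outside the Psm naming, averaged 227 ± 15.1 FPKM in IR libraries and 160 ± 10.5 in sham libraries, and Rps27a, a ubiquitin-ribosomal fusion gene, averaged 440.1 ± 43.6 FPKM in IR libraries and 258 ± 13.5 in sham libraries (SD, n = 5 each, limma adjusted p = 1.2e-06 for both). Pomp, the maturation chaperone of the core, averaged 146 ± 13.3 FPKM in IR libraries and 123 ± 5.08 in sham libraries, a log2 difference of 0.24 that was -0.09 with median-ratio scaling. Nfe2l1, the factor that raises subunit genes when proteasome activity falls, averaged 69.6 ± 2.52 FPKM in IR libraries and 64.7 ± 5.29 in sham libraries (limma adjusted p = 0.13). Adrm1, a ubiquitin receptor of the base, averaged 107 ± 9.89 FPKM in IR libraries and 102 ± 6.59 in sham libraries (adjusted p = 0.38), and 88.8 ± 2.13 FPKM in IRLacz, below IR (adjusted p = 0.030). In IRLacz against IR, 5 of the 26 were lower and 0 higher, where 7.92% and 5.39% of all entries were lower and higher. Without IRLacz replicate 1, 3 were lower, and in IRLac against IR 0 passed.

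Antigen processing and interferon-gamma genes rose in IR against sham, as the inducible subunits did. All 15 tested were higher in IR than in sham (57.0% of all entries), with a median log2 difference of 1.58, against 0.29 over all entries. With median-ratio scaling 14 were higher (35.5% of all entries), Tap1 being the exception. In IRLacz against IR the log2 differences of the 15 ran from -1.03 to 0.54. In that comparison 2 of the 15 were lower and 0 higher, where 7.92% and 5.39% of all entries were lower and higher. Without IRLacz replicate 1, 0 were lower and 1 higher, and in IRLac against IR 0 passed. Ifngr2, a chain of the interferon-gamma receptor, averaged 37.8 ± 3.06 FPKM in IR libraries and 9.45 ± 0.96 in sham libraries, and Irf8, a leukocyte interferon factor, averaged 20.4 ± 2.72 FPKM in IR libraries and 7.87 ± 0.73 in sham libraries (SD, n = 5 each).

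Tap1, a peptide transporter gene beside Psmb9, was at 0.28, 8.06, 16.4 and 11.5 FPKM in IRLacz, 6.33, 12.4, 0, 16.7 and 10.9 FPKM in IRLac, 26.03, 14.0, 10.8, 16.5 and 6.51 FPKM in IR, and 4.42, 3.09, 6.51, 4.83 and 0.73 FPKM in sham. The libraries at 0.28 and 0 are those that stood apart, and a value of exactly 0 can be a failed estimate. Ifng itself was at most 0.30 FPKM in any library and was listed at 0 in 1 IRLac, 2 IR and 3 sham libraries.

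Leukocyte markers were also higher in IR than in sham, and the order of the IR libraries differed between markers. IR replicate 1, highest in all 5 inducible genes, had a summed marker level of 1003 FPKM, of which Lyz2 gave 521. IR replicate 5, lowest in all 5, had 1148 FPKM, of which Lyz2 gave 753. Lyz2 was thus lowest in IR replicate 1, and Csf1r was highest in replicate 5 (56.6 FPKM, 50.2 in replicate 1). Ptprc and Cd52 were instead highest in IR replicate 1 (12.4 and 110 FPKM) and lowest in replicate 5 (8.87 and 71.2 FPKM). IRLacz replicate 1 was the lowest of its group in all 5 inducible genes and in the marker sum (415 FPKM). Of 18 markers 15 were tested, and 14 were higher in IR than in sham (57.0% of all entries), Cd3e being the exception. Their summed level was 415 to 905 FPKM in IRLacz, 563 to 1338 in IRLac, 925 to 1284 in IR and 78.3 to 108 in sham. The macrophage genes Lyz2, Cd68 and Adgre1 were among them, while 3 markers, Ncr1 of NK cells and Cd79a of B cells among them, stayed below the level for testing. In IRLacz against IR, 5 of the 15 markers were lower and 0 higher (1 lower without IRLacz replicate 1), and in IRLac against IR 0 passed. Over all entries, 7.92% were lower and 5.39% higher in IRLacz against IR. The part of leukocytes in the levels of the inducible subunits was not tested. Kidney identity genes were lower in IR than in sham for 10 of 12 (18.6% of all entries), and all 6 genes of dividing cells were higher (57.0%). In IRLacz against IR, 3 of the 12 kidney identity genes were higher and all 6 genes of dividing cells were lower, with summed levels of the dividing genes of 20.5 to 33.9 FPKM in IRLacz and 44.1 to 71.0 FPKM in IR. Without IRLacz replicate 1, these counts were 1 of 12 and 4 of 6.

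**Figure D5:**
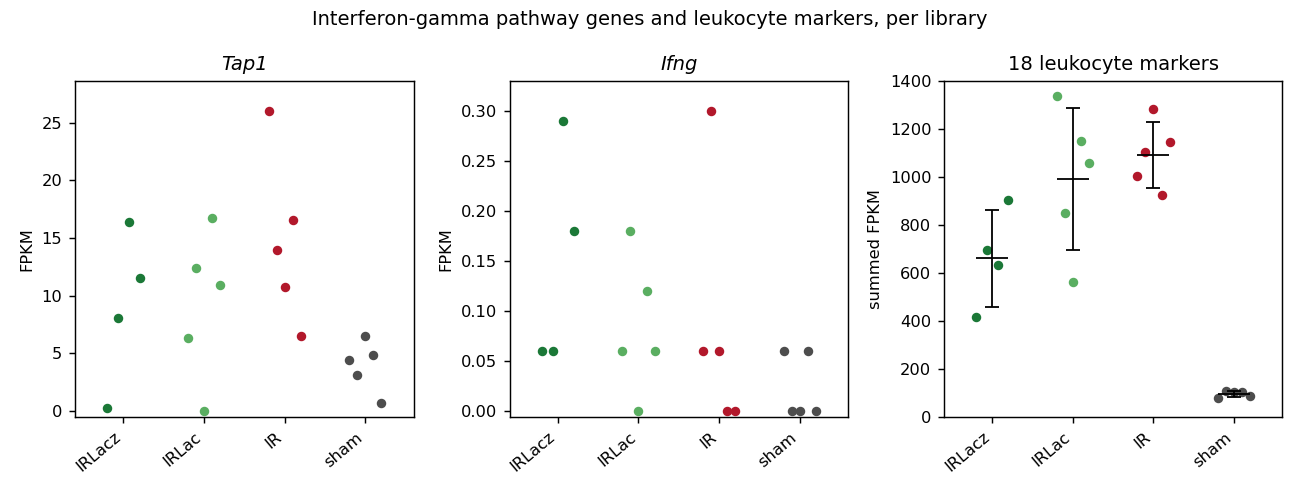
FPKM per library (points) of Tap1 and Ifng and the summed FPKM of 18 leukocyte markers, by group; bars give the group mean and SD for the sum, and none are drawn where a library is listed at 0. Leukocyte sums of every injured library lie at or above 415 FPKM and those of sham at or below 108, and Ifng stays at or below 0.30.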

How the data were processed

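The authors deposited 1 table of FPKM values with 2 decimals and a column for each of 19 libraries. Per the submitters' processing notes, the tools were HISAT and StringTie 1.0.4 and the genome build was mm9, with no role named. No source used here gives the annotation, the strand setting or the treatment of shared reads. RNA was extracted with Trizol, per the labels' protocols. Gene IDs of 18238 of 19287 entries were matched to RefSeq symbols of another build, used for names only.

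An entry was tested where 4 or more libraries reached 1 FPKM. The limma package (3.58.1, R 4.3.3) was fitted to log2(FPKM + 1) over the 4 groups together, its variance prior following the mean level, which left 15 residual degrees of freedom. Within each comparison, Benjamini-Hochberg adjustment ran over all 13594 entries, and a call is an adjusted p under 0.05. A fold on this scale understates the change of low genes. Subunit ratios were compared with two-sided exact permutation tests, adjusted over 12 comparisons. The other steps used Python 3.11.15, pandas 2.3.3, numpy 2.4.6 and matplotlib 3.10.9. These fits were first checked on simulated data. Groups and replicate numbers came from sample titles, and no batch is given.

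Depth is unknown. Low values of 78 genes moved in steps, but only 51.0% of 441 values lay within 0.1 step of a whole number (20% with no steps), so reads were not recovered. Same-numbered libraries did not deviate together (median correlation -0.07, from -0.39 to 0.23 over 27 pairs), so numbers were not taken as pairs.

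The genes and all lists were chosen with earlier results of these data known. Any of the 48 genes may be named. Library values were given for the catalytic and cap subunits and for the largest and smallest difference of each role in IR against sham and IRLacz against IR, and other genes were the 2 with the smallest adjusted p of each list plus Nfe2l1, Pomp, Adrm1, Tap1 and Ifng, and 1 further gene that is not reported here. Psmd14, Psmb3, Psmb4 and the leukocyte markers named were chosen after their values were seen. Alternatives were another pseudocount (0.1), no filter, a mean of at least 5 FPKM, median-ratio, quantile and TPM scaling, a replicate block, only the 2 groups compared, and each library left out. 1 gene of the lists, Paaf1, was not found.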

Additional observations from a re-analysis of the deposited data

Results flagged for a closer look

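Over the 48 genes and 3 ratios, 204 sets of values of 1 group were examined for a library far from the others, and 12 were found. Chance gives about 1 in 20. In IRLacz, Psmd4 was at 88.1 FPKM in replicate 1 (others 98.3 to 99.2), Psmd5 at 24.0 in replicate 3 (others 26.7 to 26.9) and Psmg2 at 18.6 in replicate 4 (others 15.3 to 15.8). In IRLac, Psmc5 was at 109 FPKM in replicate 4 (others 87.5 to 92.8) and Psma4 at 123 in replicate 1 (others 129 to 131). In IR, Psma3 was at 77.8 FPKM in replicate 5 (others 87.65 to 91.1), Psmd9 at 15.85 in replicate 1 (others 13.0 to 13.8), Psmg3 at 14.7 in replicate 4 (others 20.15 to 21.1), and the log2 ratio of Psmb9 to Psmb6 was -0.60 in replicate 5 (others 0.53 to 0.87). In sham, Psmc5 was at 91.1 FPKM in replicate 4 (others 84.3 to 86.0), Psmd1 at 35.1 in replicate 3 (others 39.9 to 40.2) and Psmd2 at 82.8 in replicate 5 (others 76.7 to 77.9). None of the 5 inducible genes is among these, although IR replicate 5 is the lowest IR library in each of them.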

How the results depend on the processing

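In IR against sham, log2 differences that changed sign and were called under either setting were, with median-ratio scaling, Psmb4 -0.25, Psmb5 -0.28, Psmb3 -0.32, Pomp -0.094, Psma4 -0.10, Psmc3 -0.17, Psma6 -0.21, Psmb1 -0.23, Psma2 -0.15, Adrm1 -0.26, Psmc5 -0.19, Psmd4 -0.17, Psmc1 -0.22, Psma3 -0.17, Psma1 -0.028, Psmc4 -0.24, Psmd2 -0.24, Psmd13 -0.24, Psmd6 -0.20, Nfe2l1 -0.22, Psmd7 -0.072, Psmc2 -0.27, Psmc6 -0.18, Psmd1 -0.12, Psmd11 -0.28, Psme3 -0.23, Psmd12 -0.21, Psmd14 -0.26, Psmd5 -0.28, Psmg3 -0.008, Psmg2 -0.11, Psmd9 -0.28 and Psmf1 -0.16, and with quantile normalization Psmd5 -0.18, Psmg2 -0.086, Psmd9 -0.28 and Psmf1 -0.22. Psmb6 also changed sign under both, to -0.15, with no call. Members higher and lower in that comparison were 22 and 5 with quantile normalization and 31 and 2 rescaled to TPM. In IRLacz against sham 38 members were called with median-ratio scaling, against 19. Psmb8, Psmb9, Psmb10, Psme1 and Psme2 kept their call in IR against sham under every alternative. In IRLacz against IR the 4 calls became 2 with median-ratio scaling, 2 with quantile normalization, 1 with TPM, 0 with only the 2 groups and 1 without IRLacz replicate 1 and IRLac replicate 3 together, an alternative added after seeing the data. Over all entries, IRLacz against IR had 885 calls (1809) with only the 2 groups. IRLac against IR had 0 (1) at a mean of 5 FPKM and without both libraries. IRLacz against IRLac had 1 (3) with a pseudocount of 0.1, 5 with no filter, 0 at a mean of 5 FPKM, 1 with only the 2 groups and 86 without both libraries. The causes were not tested.

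With a replicate block the members called in IRLacz against IR were 1, and over all entries IRLac against IR had 0 and IRLacz against IRLac 1. In a paired exact permutation test the ratios of Psmb8 to Psmb5 (2.33 in log2) and Psmb10 to Psmb7 (2.45), IR against sham, had p = 0.0625, the smallest that 5 pairs allow, and 0.214 adjusted.

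Leaving out 1 library at a time gave 0 to 6 member calls in IRLacz against IR, and over all entries 606 to 2197 in that comparison, 0 to 116 in IRLac against IR and 1 to 490 in IRLacz against IRLac. In IRLacz against IR, log2 ratio differences ran from -0.64 to -0.06 for Psmb8 to Psmb5 and -0.78 to -0.28 for Psmb10 to Psmb7. For Psmb9 to Psmb6 they ran from -0.52 to 0.24 in IRLacz against IR and from 1.25 to 1.66 in IR against sham. In IRLac against IR they ran from -0.86 to -0.55 for Psmb8 to Psmb5, -1.07 to -0.70 for Psmb9 to Psmb6 and -0.64 to -0.40 for Psmb10 to Psmb7. Depth is unknown, and 4 or 5 libraries a group limit what can be detected.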
